A study of Homo sapiens with 16 samples.

Results

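The genes described here are 6 drug efflux pumps of the ATP-binding cassette (ABC) family, Abcb1a, Abcb1b, Abcg2, Abcc1, Abcc4 and Abcc5, taken by name from the 32285 genes of the count table. They were read in tumors of T22 and T127, the LPA1-T22 and LPA1-T127 transplant models, each kept by passage from a mouse with an LPA1 receptor transgene in the mammary epithelium. T22 is intrinsically sensitive and T127 intrinsically resistant to PARP inhibitors. Both are wild type for BRCA1 and BRCA2 and competent for homologous recombination. Tumor pieces were grown in the mammary fat pads of female FVB mice bought at 6 weeks of age, and the mice received vehicle or the PARP inhibitor olaparib at 50 mg/kg by daily oral gavage. In the short-term experiment T22 or T127 tumors were treated for 4 or 8 days. In the long-term experiment tumors were treated for 20 days, with T22 and T127 grown as single strain transplants or co-transplanted in opposite fat pads of a mouse. The paper reports that co-transplanted T22 tumors became resistant to olaparib. Long-term T22 cells therefore mix cells of sensitive and of resistant tumors.

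Tumors were hashtagged and captured in pools, 4 of short-term T22, 4 of short-term T127 and 8 of long-term tumors in which both models were mixed. No file used here ties a cell to its tumor, so vehicle and olaparib, or single strain and co-transplanted tumors, were not compared, and each experiment stands as 1 sample. A pool is a capture, not a tumor, and the spread between pools is given as a range with no test. Treatment time, transplant setting and library run differ together between the long-term and the short-term pools and cannot be told apart. In the short-term experiment each model had pools of its own, so model and pool cannot be told apart there either.

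Of 53946 deposited cells 48824 were kept, because long-term pools 1, 2 and 3 shared 987 to 3939 cell barcodes a pair and only the deepest copy was used, against 0 to 11 shared barcodes in the other 117 pairs of pools. Pools held 34755906 to 55600377 unique molecular identifiers (UMIs, 1 per captured transcript molecule) and the 6 pumps had 83876 UMIs in all. Levels are UMIs of a gene per 1000000 UMIs of the cells summed (CPM), with exact 95% intervals that cover counting error only. Malignant cells carried the deposited labels Malign_0 and Malign_1 for T127 and Malign_2 and Malign_3 for T22, and in the short-term pools each label came from its own model alone. The labels held 13694 malignant cells, of which Malign_3 in the short-term pools, with 218 cells, was the smallest group. Against the epithelial markers Epcam, Cdh1, Krt8, Krt18 and Krt14, the T127 labels held Krt8 and Krt18 but were near 0 for Epcam, at 0.893 to 5.87 CPM against 749 to 2780 CPM in the T22 labels. The fibroblast markers Col1a1, Col3a1, Pdgfra, Pdgfrb and Dcn summed to 2900 to 4475 CPM in the T127 labels.

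ABC pumps are membrane proteins that spend ATP to move compounds out of the cell. In mice the drug pump P-glycoprotein, which is encoded by a single gene in humans, comes from the pair Abcb1a and Abcb1b, and olaparib is one of its known substrates. Abcg2 encodes the breast cancer resistance protein, an exporter known from the vessel walls of the blood-brain barrier. Abcc1, Abcc4 and Abcc5 encode multidrug resistance-associated proteins, which carry glutathione conjugates, in the case of Abcc1, and cyclic nucleotides, in the case of Abcc4 and Abcc5.

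T127 malignant cells carried far more of both P-glycoprotein genes than T22 malignant cells, in either experiment, and far less Abcg2. Abcc4 and Abcc5 were also higher in T127, and Abcc1 was higher by less. The T22 sums held 1352 Malign_2 and 907 Malign_3 cells in the long-term pools, and 1736 and 218 in the short-term pools. The long-term and short-term ratios therefore also differ in this mix of labels. In the long-term pools 4 of 6 pumps were at 2-fold or more higher in T127 (Abcb1a, Abcb1b, Abcc4 and Abcc5), where 20.0% of all genes with 10 or more UMIs were, and 1 pump, Abcg2, was at 2-fold or more lower, where 27.7% of genes were. In the short-term pools Abcc1 joined them, which made 5 higher and 1 lower against 21.8% and 30.1% of all genes. For 5 pumps every T127 pool lay above every T22 pool in both experiments, as for 23.8% of genes in the long-term and 36.6% in the short-term pools. Abcg2 lay below in every pool, as did 26.9% and 39.9% of genes.

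Abcb1a, the P-glycoprotein gene best known from brain vessels, ranged over the 8 long-term pools from 46.1 to 66.1 CPM with a median of 54.3 CPM in T127 malignant cells, and from 0 to 1.21 CPM with a median of 0.647 CPM in T22 malignant cells. No pool of the models overlapped. The sums were 53.8 and 0.636 CPM, from 5393 and 25 UMIs, a ratio of 84.6 (counting interval 57.3 to 131), which ran from 60.9 without long-term pools 1, 2 and 3 to 134 without the top 5% of cells by UMIs and 213 with cells thinned to 3000 UMIs. Both models sat in the same 8 captures, and the ratio within a pool was never below 40.7. In the short-term pools the sums were 27.8 CPM in T127 and 0.227 CPM in T22, where 12 UMIs were counted, a ratio of 123 (70.2 to 238). The ratios of the long-term and the short-term pools had overlapping intervals.

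Abcb1b, the partner gene, ranged over the long-term pools from 66.8 to 114 CPM in T127 and from 2.88 to 7.02 CPM in T22. The sums of 88.4 and 4.02 CPM gave a ratio of 22 (18.8 to 25.9), with 16.3 to 29.3 within single pools. Abcb1b stood at 68.0 CPM in T127 and 5.38 CPM in T22 in the short-term pools, a ratio of 12.6 (11.2 to 14.3). Unlike Abcb1a it was thus plainly counted in T22 cells too, with 158 UMIs in the long-term and 285 UMIs in the short-term pools.

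Abcg2 went the other way. It stood at 3.08 CPM in T22 and 0.150 CPM in T127 malignant cells of the long-term pools, 121 and 15 UMIs, and was 20.6-fold lower in T127 (12.0 to 37.9), or 13.1-fold without the top 5% of cells and 11.2-fold when thinned. It was 30.7-fold lower (18.6 to 54.0) in the short-term pools, at 2.96 CPM in T22 and 0.0966 CPM in T127. The T22 pools spanned 2.53 to 3.58 CPM in the long-term and 2.14 to 3.49 CPM in the short-term experiment. Endothelial cells are the richest label in Abcg2 in these data. Their 6 markers summed to 2.48 to 9.10 CPM in the T22 labels, against 8030 CPM in the long-term and 8838 CPM in the short-term T22 endothelial label. The 5 fibroblast markers summed to 802 CPM in long-term and 799 CPM in short-term Malign_2 cells. In Malign_3 cells they summed to 70.1 and 18.9 CPM. The part of endothelial cells, fibroblasts or their RNA in the Abcg2 of T22 cells was not tested.

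Among the multidrug resistance-associated proteins, Abcc5 kept a like ratio in both experiments, with 21.1 CPM in T127 and 4.40 CPM in T22 in the long-term pools (ratio 4.80, 4.11 to 5.63, and 7.53 when thinned) and 47.1 and 9.27 CPM in the short-term pools (5.08, 4.64 to 5.58). Abcc1 stood at 20.2 and 11.3 CPM in the long-term pools (1.78, 1.61 to 1.98) and at 43.2 and 18.8 CPM in the short-term pools (2.29, 2.15 to 2.45). Its ratio within single long-term pools was 1.47 to 2.02, above 1 in 8 of 8 pools. Under the alternative runs described at the end the long-term ratio of the sums was 1.44 to 1.84. Abcc4 was rarely counted in malignant cells, with 1.96 CPM in T127 against 0.127 CPM in T22 from 196 and 5 UMIs (15.4, 6.48 to 47.9), and with 2.74 against 0.283 CPM in the short-term pools (9.67, 5.81 to 17.4). Thinned to 3000 UMIs per cell these ratios were 4.09 and 6.14.

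**Figure D1:**
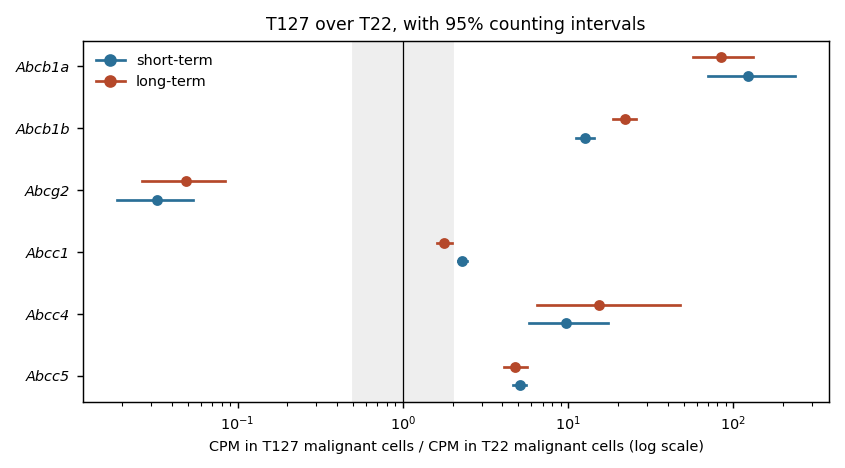
Ratio of pump CPM in T127 malignant cells to that in T22 malignant cells (log scale), with the summed long-term pools in red, the summed short-term pools in blue and lines for 95% counting intervals. The grey band marks less than 2-fold, and Abcg2 alone lies to its left, at 0.0486 and 0.0326, while Abcb1a lies farthest to the right, at 84.6 and 123.

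The labels of each model also differed. Abcb1a was higher in Malign_1 than in Malign_0 in 8 of 8 long-term pools (61.8 and 48.6 CPM, ratio 1.27, 1.20 to 1.34) and in 4 of 4 short-term pools (31.1 and 25.0 CPM, 1.24, 1.18 to 1.32). Abcb1b was higher in Malign_1 in the same 8 and 4 pools, by ratios of only 1.06 and 1.05. Abcc5 was lower in Malign_1 in 6 of 8 long-term pools (0.856, 0.782 to 0.937) and did not differ beyond counting error in the short-term pools (1.01, 0.971 to 1.06). Abcc1 did not differ beyond counting error between Malign_1 and Malign_0 in either experiment, with ratios of 0.996 (0.910 to 1.09) and 0.981 (0.938 to 1.03).

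Within T22, Malign_2 held more Abcb1b, Abcg2 and Abcc5 than Malign_3, and Malign_3 more Abcc1. Abcb1b was 5.95 CPM in Malign_2 and 0.191 CPM in Malign_3 in the short-term pools, where Malign_3 gave 1 UMI, and 5.19 and 2.28 CPM in the long-term pools (ratio 2.27, 1.56 to 3.40). Abcg2 had ratios of Malign_2 to Malign_3 of 2.77 (1.24 to 7.65) in the short-term and 2.71 (1.72 to 4.44) in the long-term pools. Abcc1 was lower in Malign_2 in 8 of 8 long-term pools (0.608, 0.502 to 0.735) and 4 of 4 short-term pools (0.476, 0.405 to 0.561).

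**Figure D2:**
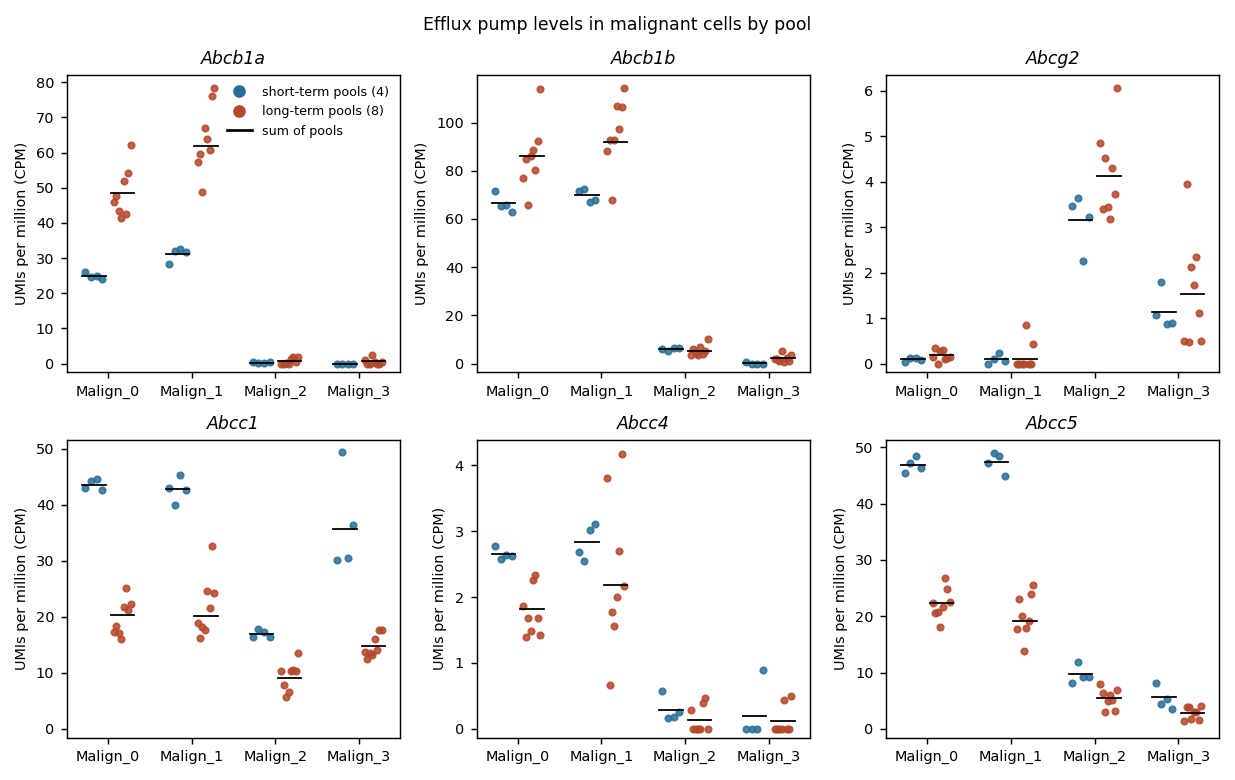
CPM of each pump in the 4 malignant labels, with a point for each pool (blue short-term, red long-term) and a black bar for the sum of the pools. The long-term points of Abcb1a in Malign_0 (41.3 to 62.1 CPM) and Malign_1 (48.8 to 78.3 CPM) lie above all short-term points, while those of Abcc1 and Abcc5 in the same labels lie below all short-term points.

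Between the long-term and the short-term pools the pumps of T127 cells moved in opposite directions. Abcb1a was higher in the long-term pools in both T127 labels, by a little under 2-fold, while Abcc1 and Abcc5 were lower by a little over 2-fold. Abcb1b lay between, with ratios of 1.30 and 1.32. Over all genes with 50 or more UMIs the median log2 ratio of long-term to short-term CPM was itself below 0, at -0.38 in Malign_0, -0.37 in Malign_1, -0.37 in Malign_2 and -0.33 in Malign_3, so that a ratio of 1 is higher than that of most genes.

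In Malign_0, Abcb1a stood at 26.1, 24.5, 25.0 and 24.2 CPM in short-term T127 pools 1 to 4, and at 41.3 to 62.1 CPM with a median of 46.8 CPM in the long-term pools. The lowest long-term pool lay far above the highest short-term pool. The sums were 48.6 and 25.0 CPM (ratio 1.95, 1.84 to 2.06). Of genes with 50 or more UMIs, 94.6% had a lower ratio. The shares of genes at 2-fold or more are instead taken over genes with 10 or more UMIs. In Malign_1 the short-term pools held 28.3, 32.0, 32.5 and 31.8 CPM and the long-term pools 48.8 to 78.3 CPM. Here too no pool overlapped, and the ratio of 1.99 (1.88 to 2.10) was above that of 95% of genes with 50 or more UMIs.

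Set against the median gene in place of the total, the ratio of Abcb1a became 2.53 in Malign_0 and 2.51 in Malign_1, past 2-fold. Leaving out long-term pools 1, 2 and 3, which shared barcodes, gave 2.01 and 2.19, past 2-fold as well.

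Abcb1b was 86.2 and 66.5 CPM in the long-term and short-term pools in Malign_0 (1.30, 1.25 to 1.35) and 91.8 and 69.7 CPM in Malign_1 (1.32, 1.26 to 1.37). The pools overlapped in both labels, with 65.7 to 114 CPM in the long-term and 62.9 to 71.4 CPM in the short-term pools of Malign_0. The share of Abcb1a among the UMIs of the pair was therefore 36.1% (35.0 to 37.1) in long-term and 27.3% (26.4 to 28.3) in short-term Malign_0 cells, and 40.2% (39.0 to 41.5) and 30.8% (29.8 to 31.8) in Malign_1 cells. Abcb1a and Abcb1b are closely related paralogs, and how many reads match both was not measured here, so the split of the pair carries that uncertainty.

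Abcc1, whose protein exports glutathione conjugates, stood in Malign_0 at 43.0, 44.1, 44.5 and 42.6 CPM in the short-term pools and at 16.0 to 25.2 CPM in the long-term pools. All long-term pools lay below. It was 2.15-fold lower in Malign_0 (2.02 to 2.29) and 2.12-fold lower in Malign_1 (1.96 to 2.29), and without long-term pools 1, 2 and 3 it was 2.02-fold and 1.91-fold lower, the latter under 2-fold. Abcc5 was 2.09-fold lower in Malign_0 (1.97 to 2.23), from 46.8 to 22.4 CPM, and 2.48-fold lower in Malign_1 (2.29 to 2.68), from 47.5 to 19.2 CPM, again with no overlap of pools. Against the median gene the same pumps were lower by 1.66-fold and 1.61-fold in Malign_0 and by 1.68-fold and 1.96-fold in Malign_1, under 2-fold.

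Abcc4 was 1.81 and 2.66 CPM in the long-term and short-term pools of Malign_0, a ratio of 0.682 (0.540 to 0.857), with all long-term pools below. In Malign_1 its ratio was 0.768 (0.592 to 0.987) with overlapping pools. Abcg2 had 11 and 9 UMIs in Malign_0 and 4 and 8 UMIs in Malign_1, too few to show a difference at this depth.

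Counted over the members, 0 of 6 pumps were at 2-fold or more higher and 2 of 6 lower in Malign_0, where 8.46% and 22.9% of all genes were. In Malign_1 the counts were again 0 and 2 of 6, against 8.16% and 24.0% of genes. Pools did not overlap for 1 pump above and 3 below in Malign_0, against 11.4% and 38.8% of genes, and for 1 above and 2 below in Malign_1, against 10.1% and 34.3%.

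In the T22 labels Abcc1 and Abcc5 were lower in the long-term pools, while Abcb1b and Abcg2 in Malign_2 did not differ beyond counting error and the remaining values rest on few UMIs. In Malign_2, Abcc1 stood at 16.4, 17.8, 17.3 and 16.3 CPM in the short-term T22 pools and at 5.74 to 13.5 CPM in the long-term pools, with no overlap, and was 1.88-fold lower (1.62 to 2.20). Abcc5 was 1.76-fold lower (1.45 to 2.16), from 9.66 to 5.48 CPM, also without overlap, and past 2-fold without the top 5% of cells (2.09) and when thinned (2.34). Abcc4 had 3 and 14 UMIs, a ratio of 0.435 (0.0801 to 1.56), which was 0.648 without short-term T22 pool 1, and 0.506 and 0.526 without long-term pool 3 or 4. Abcb1b, which macrophages also hold, did not differ beyond counting error, at 5.19 and 5.95 CPM (0.871, 0.699 to 1.08), and its ratio was 1.09 against the median gene. Abcg2 was 4.12 and 3.17 CPM (1.30, 0.999 to 1.69). The 6 macrophage markers summed to 104 and 53.1 CPM in Malign_2 and to 185 and 32.6 CPM in Malign_3, and their part in these ratios was not tested.

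Abcb1a in Malign_2 had a ratio of 2.54 (1.11 to 5.93), but from 15 and 12 UMIs, at 0.638 and 0.252 CPM, or 1.18% of the level of T127 cells in the long-term pools. The short-term T22 pools held no cells labelled as T127 malignant, and the long-term pools held both models. The part of free RNA or of mixed cells in these 15 UMIs was not tested. The ratio ran from 1.43 by the mean CPM per cell to 4.05 without long-term pools 1, 2 and 3. It was 1.49 without the top 5% of cells by UMIs and 1.90 without long-term pool 6, and the pools overlapped.

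In Malign_3, Abcc1 was 2.41-fold lower (1.97 to 2.93), from 35.7 to 14.8 CPM, with long-term pools of 12.5 to 17.7 CPM and short-term pools of 30.2, 49.4, 30.5 and 36.4 CPM. Against the median gene it was 1.89-fold and when thinned 1.87-fold lower. Abcc5 was 2.05-fold lower (1.25 to 3.34) with overlapping pools, from 30 UMIs in the short-term pools. This ran from 1.59-fold without short-term T22 pool 1 to 2.27-fold without short-term T22 pool 4, and was under 2-fold without long-term pool 1, 4 or 7 as well (1.92 to 1.95). Abcb1b had 36 UMIs in the long-term pools, 12 of them in pool 4, and 1 UMI in the short-term pools, a ratio of 12.0 (2.01 to 485), or 28.0 by the mean CPM per cell. Its long-term level was 2.58% of that of T127 cells, and the part of free RNA or of mixed cells in it was not tested. Abcb1a had 10 UMIs in the long-term pools, 6 of them in pool 4, and 0 UMIs in the short-term pools, and the counting interval of the ratio, from 0.745 upward, holds 1. Abcc4 had 3 UMIs in all and was not compared.

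In Malign_2 the pumps at 2-fold or more were 1 higher and 1 lower of 6, Abcb1a and Abcc4, where 4.43% and 19.0% of genes were. In Malign_3 they were 1 higher (Abcb1b) and 2 lower (Abcc1 and Abcc5) of 5 with enough UMIs, where 5.04% and 20.0% of genes were. Pools did not overlap for 0 pumps above and 2 below in Malign_2, against 8.51% and 31.2% of genes, and for 1 above and 1 below in Malign_3, against 6.74% and 22.6%. Abcc1 was thus lower in the long-term pools in all 4 malignant labels with no overlap of pools, and its ratio of 0.416 to 0.531 stayed below that of the median gene in each. Over the 4 labels 8.35% to 20.7% of genes with 50 or more UMIs had a lower ratio than Abcc1. For Abcc5 this share was 12.1% to 26.2%.

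**Figure D3:**
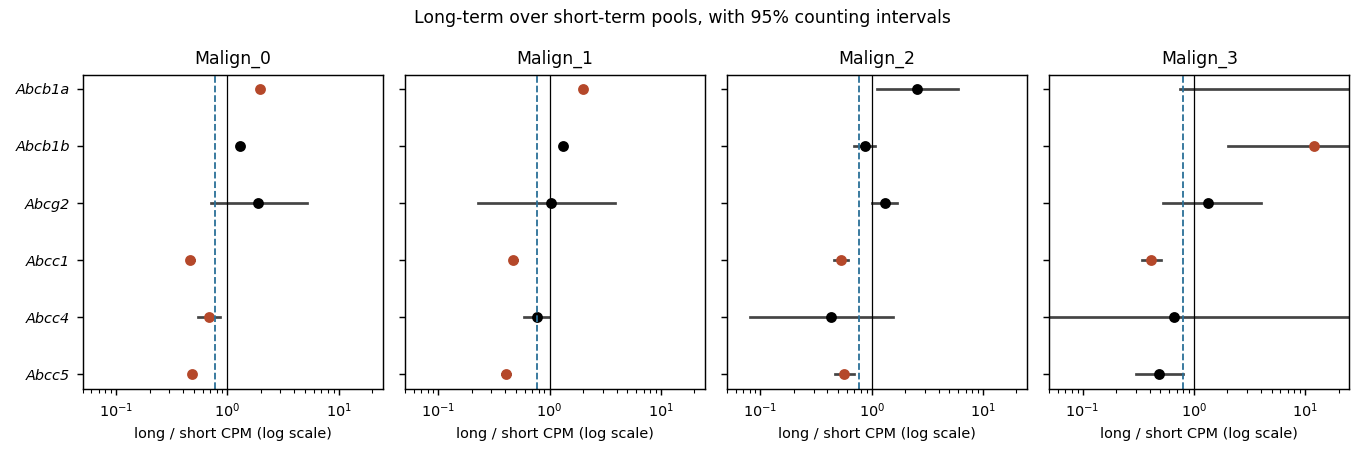
Ratio of pump CPM in the summed long-term pools to that in the summed short-term pools (log scale) for the 4 malignant labels, with 95% counting intervals as lines, cut at the edge of the axis. Red points mark pumps whose pools did not overlap, the dashed line is the median of all genes, and Abcb1a in Malign_3 has no point because its short-term sum is 0. Abcb1a in Malign_0 and Malign_1 (1.95 and 1.99) and Abcc1 in all labels (0.416 to 0.531) lie on opposite sides of 1.

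Other features of the RNA moved with the experiment, and their part in these ratios was not tested. Mitochondrial UMIs were 1.31% of the total in long-term and 2.66% in short-term Malign_0 cells. The nuclear RNA Malat1 stood at 38922 and 15684 CPM in Malign_0 and at 38337 and 20549 CPM in Malign_1, but at 11198 and 11644 CPM in Malign_2. The median cell held 19775 UMIs in long-term and 36205 UMIs in short-term Malign_0. With totals that leave out mitochondrial, ribosomal protein and Malat1 counts the ratio of Abcb1a was 2.02 in Malign_0 and 2.06 in Malign_1.

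Macrophage, endothelial and T and NK markers were low in the T127 labels, while fibroblast markers were not. The 5 fibroblast markers summed to 4475 CPM in long-term and 2900 CPM in short-term Malign_0 cells and to 4463 and 3968 CPM in Malign_1 cells, against 4573 CPM in long-term my_CAF and 25286 CPM in long-term i_CAF cells. The 6 macrophage markers summed to 79.6 CPM in long-term and 8.66 CPM in short-term Malign_0 cells, against 20478 CPM in long-term Macro-M2 cells. The 6 endothelial markers summed to 9.56 and 6.09 CPM in Malign_0, against 8030 CPM in endothelial cells, and the 5 T and NK markers to 8.27 and 0.988 CPM. The part of these lists in the ratios of the pumps was not tested.

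Per cell, the higher Abcb1a of the long-term pools showed as more cells with a UMI and as more UMIs in a cell. With each cell thinned to 10000 UMIs, and 119 and 9 shallower cells left out, 35.2% (33.4 to 37.1) of long-term and 22.8% (21.2 to 24.5) of short-term Malign_0 cells had an Abcb1a UMI. In Malign_1 the shares were 41.1% (38.8 to 43.4) and 24.9% (23.2 to 26.7), with 34 and 4 cells left out. Without thinning the shares of Malign_0 were 52.2% and 50.9%, since short-term cells were deeper. Cells with 3 or more Abcb1a UMIs made up 4.01% of long-term and 1.20% of short-term Malign_0 cells at the thinned depth, and 5.63% and 0.933% of Malign_1 cells. The variance of the UMI count over its mean, which is 1 for pure counting, was 1.61 and 1.32 in Malign_0 and 1.51 and 1.23 in Malign_1.

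A UMI of either P-glycoprotein gene was found in 67.8% (66.0 to 69.6) of long-term and 57.4% (55.4 to 59.3) of short-term Malign_0 cells, and in 69.4% and 60.3% of Malign_1 cells. In Malign_2 these shares were 4.46% (3.39 to 5.74) and 5.62% (4.58 to 6.81). In Malign_3 they were 2.00% (1.15 to 3.23) and 0 of 213 cells, where 3 cells would be 1.41% and the exact upper limit is 1.72%. Such limits hold for cells with a UMI at the thinned depth, not for cells that express the gene. At 3000 UMIs per cell Abcb1a was found in 13.6% of long-term and 8.15% of short-term Malign_0 cells. At that depth it was found in 0 of 93 long-term my_CAF cells, fibroblasts with a median of 5926 UMIs, where 3 cells would be 3.23% and the exact upper limit is 3.89%.

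**Figure D4:**
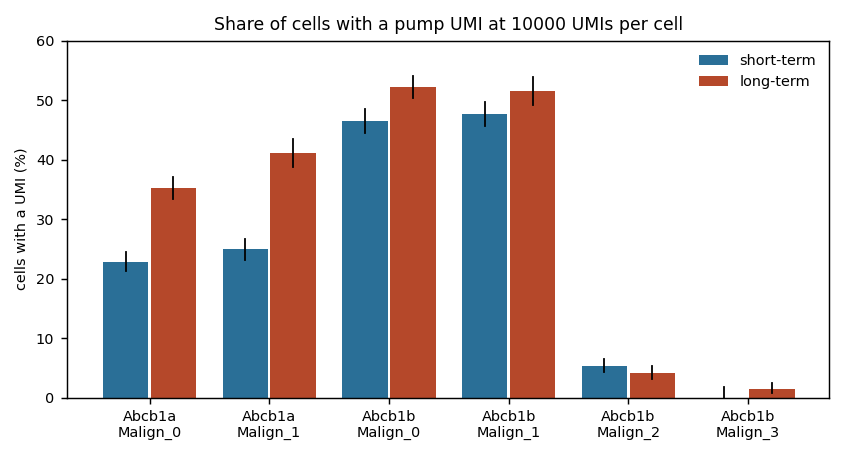
Share of malignant cells with at least 1 UMI of Abcb1a or Abcb1b after thinning each cell to 10000 UMIs, for short-term (blue) and long-term (red) cells, with exact 95% binomial intervals as lines. The Abcb1a bars rise from 22.8% to 35.2% in Malign_0 and from 24.9% to 41.1% in Malign_1, and the Abcb1b bars of Malign_2 and Malign_3 reach 5.27% at most.

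The 22 labels of the series show where else the pumps are found, and each pump had its own order of labels. Malignant cells held 77.4% of all Abcb1a UMIs, 63.2% of Abcb1b, 80.5% of Abcc5 and 69.1% of Abcc1, but only 7.29% of Abcg2 and 24.0% of Abcc4. These shares also depend on the number and depth of cells. Malignant cells were 13694 of the 48824 cells kept, with medians of 15056 to 36205 UMIs by label. Their share of the UMIs of all genes was not computed, so the shares alone show no concentration in malignant cells. Labels with 50 or more cells are ranked below. In a pool of dissociated cells free RNA can reach any label, and its share was not measured here, so low levels are given as values only.

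Abcg2 was highest in endothelial cells in every experiment, at 245 CPM (218 to 276) in long-term, 347 CPM (308 to 390) in short-term T22 and 117 CPM (97.6 to 138) in short-term T127 pools. Endothelial cells of the short-term models did not overlap between pools, with 296 to 379 CPM in T22 and 58.3 to 153 CPM in T127. The next labels were my_CAF, contractile fibroblasts, at 57.9 CPM in the long-term and 68.3 CPM in the short-term T22 pools, and NK cells at 22.9 to 42.0 CPM. Malign_0 and Malign_1 were the last labels in the order in the short-term T127 pools, and in the long-term pools only B cells, with 0 UMIs, came after them. The B cell label, 309 cells with a median of 2082 UMIs, is too small to be placed below Malign_0 and Malign_1 by that 0.

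Abcb1a was also high in endothelial cells, with 55.2 CPM (42.4 to 70.7) in long-term, 102 CPM (pools 52.2 to 142) in short-term T22 and 57.4 CPM (44.3 to 73.2) in short-term T127 pools. In the long-term pools the first 3 labels were Malign_1, endothelial cells and Malign_0, and endothelial cells did not differ from either neighbour beyond their counting interval. T and NK cells followed at 18.9 to 34.7 CPM. In the short-term T127 pools NK cells (69.9 CPM, 54.5 to 88.4) and endothelial cells came first, and Malign_1 and Malign_0 took places 5 and 6 of 14. Of the fibroblasts, i_CAF cells had 1.51 CPM and my_CAF cells 0 UMIs, where 3 UMIs would be 4.04 CPM and the exact upper limit is 4.97 CPM.

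Abcb1b had another order. In the long-term pools T127 cells came first, then CD8_Tn-CCR7 cells (65.1 CPM), NK cells (58.1 CPM) and plasmacytoid dendritic cells (50.6 CPM). The 4 long-term macrophage labels stood at 35.7 to 45.6 CPM, and the other T cell labels overlapped them at 30.2 to 43.8 CPM. In the short-term T127 pools CD4_Treg-FOXP3 cells held 16.2 CPM. In endothelial cells Abcb1a made up 69.2% (58.7 to 78.5) of the UMIs of the pair in the long-term, 88.4% (80.2 to 94.1) in the short-term T22 and 83.3% (73.2 to 90.8) in the short-term T127 pools. In the 4 macrophage labels of the short-term T22 pools it made up 2.67% to 5.86%.

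Macrophages of the short-term T127 pools differed from those of the short-term T22 pools in the balance of the pair. Model and pool cannot be told apart in this comparison. In Macro-M2 cells Abcb1a stood at 16.0 CPM (pools 13.9 to 18.8) in T127 and 2.86 CPM (pools 0.807 to 8.22) in T22 tumors, a ratio of 5.61 (3.73 to 8.78) with no overlap of pools, while Abcb1b stood at 27.4 and 45.9 CPM (0.597, 0.519 to 0.687). Abcb1a reached 57.6% of the level of T127 malignant cells in these macrophages, while Krt8 and Krt18, abundant in the malignant cells, reached 1.05% and 1.06% of theirs. The part of free RNA or of malignant cells in the Abcb1a of macrophages was not tested. Over the 7 non-malignant labels with 20 or more Abcb1a UMIs in the short-term models, Abcb1a was higher in T127 tumors in 6, and the exception was the endothelial label (0.562, 0.400 to 0.786). In the long-term pools, where the models were mixed, Macro-M2 cells held 7.45 CPM.

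Abcc1 spanned 2.17 to 20.2 CPM over the 21 long-term labels, where T127 cells came first and CD8_Tn-CCR7 cells, with 1 UMI, last. In the short-term T127 pools Macro-M2 cells held 47.6 CPM (44.1 to 51.3), beside 43.5 and 42.7 CPM in Malign_0 and Malign_1, and in the short-term T22 pools they held 15.6 CPM (13.1 to 18.4), a ratio between the models of 3.05 (2.54 to 3.68). Non-malignant cells shared its lower level in the long-term pools, where cells of T22 and T127 tumors are mixed. Abcc1 was lower in the long-term than in the short-term T127 pools in 12 of 12 non-malignant labels, in 9 beyond the counting interval, with a median ratio of 0.337. Against the short-term T22 pools it was lower in 13 of 14, in 7 beyond it, with a median ratio of 0.627. Ratios in non-malignant labels were computed for the pumps only, so no share of all genes stands beside any such count of labels. Whether the pumps moved more than other genes in these labels was not tested.

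Abcc4 was highest in endothelial cells, at 21.0 to 32.9 CPM in the 3 experiments, and next in cells labelled CD14-PF4 and CD14-IL1B. Besides macrophage markers (6638 and 5206 CPM) these held epithelial markers in the long-term pools, at 2278 and 1100 CPM, and in short-term T127 CD14-IL1B cells both lists were near level, at 799 and 848 CPM. In CD14-IL1B cells the epithelial sum was mostly Epcam, at 992 CPM in the long-term and 636 CPM in the short-term T127 pools. Krt8 stood there at 12.3 and 11.7 CPM and Krt18 at 10.1 and 16.1 CPM. Long-term CD14-PF4 cells held Epcam, Krt8 and Krt18 at 851, 392 and 647 CPM. The part of epithelial cells in this order was not tested. Abcc4 was lower in the long-term than in the short-term T127 pools in 9 of 9 non-malignant labels with 20 or more UMIs, in 6 beyond the counting interval. Against the short-term T22 pools it was lower in 11 of 12, in 7 beyond it. Abcc5 was highest in T127 malignant cells in both experiments that held them, and in the short-term T22 pools in endothelial cells, at 23.1 CPM (13.9 to 36.1). Abcb1a, by contrast, was lower in the long-term than in the short-term T127 pools in 8 of 9 non-malignant labels with 20 or more UMIs, in 4 of them beyond the counting interval, with a median ratio of 0.549, while in the T127 malignant labels it was higher. Compared with the short-term T22 pools it was higher in the long-term pools in 8 of 12 such labels, in 6 of them beyond the counting interval, and lower in 4, in 3 beyond it, with a median ratio of 2.64. The long-term labels mix cells of both models.

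**Figure D5:**
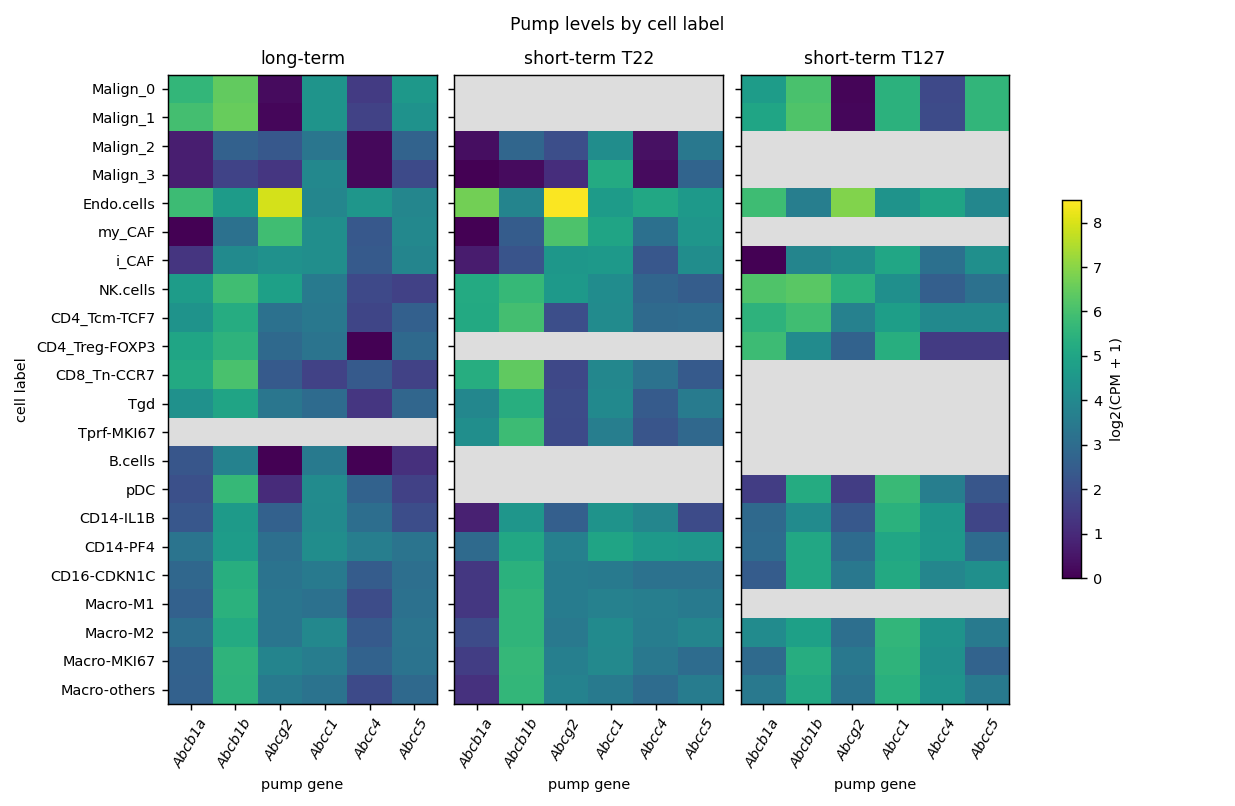
Pump levels as log2(CPM + 1), by colour, for the labels with 50 or more cells (rows) and the 6 pumps (columns) in each experiment, with grey where a label had fewer cells. Endothelial cells are brightest for Abcg2 (245, 347 and 117 CPM), and Abcb1a is dark in T22 malignant cells and fibroblasts and bright in T127 malignant, endothelial, T and NK cells.

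The order of labels by Abcb1a was nearly the same in the long-term and the short-term T22 pools, with a Spearman rho of 0.996 over 16 labels. The rho was 0.935 for Abcb1b, 0.832 for Abcg2, 0.732 for Abcc1, 0.871 for Abcc4 and 0.879 for Abcc5. Against the short-term T127 pools, over 14 labels, it was 0.938 for Abcg2 and only 0.336 for Abcc1. Labels share pools and differ in depth, so these values are descriptions.

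By the likeness of the log2(CPM + 1) over the 21 long-term labels among 13499 genes, Abcb1a was nearest to Upp1, uridine phosphorylase 1 (Pearson r = 0.898, then 0.874 over 17 labels of the short-term T22 and 0.740 over 14 labels of the short-term T127 pools), followed by Gfod1 (0.866, 0.680 and 0.797) and Stn1 (0.840, 0.519 and 0.662). For Abcb1b, Galnt7, a glycosyltransferase gene, kept its likeness best, with r = 0.842, 0.833 and 0.849 in the long-term, T22 and T127 pools, beside 4933434E20Rik (0.851, 0.603 and 0.257) and Gng2 (0.828, 0.837 and 0.286). Abcg2 was nearest to Ywhab (0.940, 0.755 and 0.682), Dgkh (0.899, 0.872 and 0.843) and Rab1b (0.851, 0.653 and 0.603), all highest in endothelial cells. The genes nearest to Abcc1 were Drosha (0.893, 0.559 and -0.20), Atg9a (0.885, 0.757 and -0.38) and Ap3m1 (0.873, 0.671 and 0.338). Those nearest to Abcc4 were Ripk1 (0.809, 0.859 and 0.289), Klhl5 (0.801, 0.763 and 0.506) and Tbc1d10b (0.782, 0.553 and 0.331), and those nearest to Abcc5 were Fam78b (0.903, 0.589 and 0.843), Mfsd5 (0.902, 0.933 and 0.554) and Piezo1 (0.891, 0.553 and 0.692).

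Of the wider set of transport genes some were higher and some lower in T127, and each count is to be read against the share of all genes. Of 19 other ABC transporters 12 had 10 or more UMIs in the long-term malignant cells, of which 2 were at 2-fold or more higher in T127 and 5 lower, where 20.0% and 27.7% of all genes were, with a median log2 ratio of -0.45 against -0.05 for all genes. The higher ones were Abcg1, a cholesterol exporter (17.4 and 4.33 CPM, ratio 4.03, 3.44 to 4.75), and Abcb9, a lysosomal peptide transporter (19.6 and 9.16 CPM, 2.14, 1.91 to 2.40). Abcc3, a close relative of Abcc1 that carries glucuronides and bile acids, was counted almost only in T22 cells, at 43.8 CPM against 0.479 CPM in T127 (91.4-fold lower, 68.6 to 124). The heme-linked mitochondrial transporters Abcb6 and Abcb10 were 3.45-fold and 2.06-fold lower in T127. In the short-term pools 4 of 13 tested were higher and 5 lower, where 21.8% and 30.1% of all genes were, with Abcc3 at 9.42 CPM in T22 and 0.296 CPM in T127. Malign_3 made up more of the T22 cells in the long-term pools. Within Malign_2 and within Malign_3 no gene of this list was at 2-fold or more higher in the long-term than in the short-term pools. The part of the mix of labels in the Abcc3 levels of T22 cells was not tested.

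Of 11 uptake carriers, which bring compounds into the cell, 3 were at 2-fold or more higher in T127 and 3 lower in the long-term pools, counts near the 20.0% and 27.7% of all genes, with a median log2 ratio of -0.77. Slc22a4, an ergothioneine and organic cation carrier, stood at 29.0 CPM in T127 and 0.662 CPM in T22 (43.8, 29.8 to 67.1). The nucleoside carrier Slc29a1 stood at 296 and 118 CPM (2.50, 2.43 to 2.58). The copper importer Slc31a1, which is also linked to platinum uptake, stood at 18.9 CPM in T127 and 94.4 CPM in T22 (0.200, 0.189 to 0.212), and Slco3a1 at 2.13 and 12.9 CPM. In the short-term pools 2 were higher and 4 lower of 11, near the 21.8% and 30.1% of all genes, with Slc22a4 at 29.8 and 0.264 CPM.

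Of 17 enzymes of glutathione synthesis, conjugation and related detoxification, 2 were higher and 8 lower in T127 in the long-term pools, where 20.0% and 27.7% of all genes were, with a median log2 ratio of -0.59 against -0.05 for all genes. The microsomal glutathione transferases went both ways, with Mgst3 at 445 CPM in T127 and 54.3 CPM in T22 (8.19, 7.85 to 8.56), and Mgst1 at 3.29 CPM in T127 and 536 CPM in T22, 163-fold lower (146 to 182). Gsta4, which conjugates products of lipid peroxidation, stood at 8.84 and 352 CPM. Gclm, a subunit of the first enzyme of glutathione synthesis, stood at 57.1 and 122 CPM, and the quinone reductase Nqo1 at 30.0 and 68.8 CPM. In the short-term pools 4 were higher and 7 lower, where 21.8% and 30.1% of all genes were, and the higher ones included glutathione reductase, Gsr, at 69.4 and 30.3 CPM, and glutathione synthetase, Gss, at 47.1 and 20.8 CPM.

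Of 18 regulators and membrane anchors of pumps 16 were tested in the long-term pools, and 2 were higher in T127 and 0 lower, against the same 20.0% and 27.7% of genes, with a median log2 ratio of 0.12. These were Msn, which encodes moesin, a linker between membrane proteins and actin (363 and 102 CPM, 3.55, 3.44 to 3.67), and Arnt, the partner of the aryl hydrocarbon receptor (13.8 and 6.21 CPM, 2.23, 1.94 to 2.56). Both were higher in the short-term pools too, at 714 and 147 CPM for Msn and 29.9 and 13.4 CPM for Arnt.

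Between the long-term and the short-term pools the same lists moved as follows in Malign_0. At 2-fold or more, 8.46% of all genes were higher and 22.9% lower. Of 17 regulators and anchors tested 0 were higher and 6 lower, with a median log2 ratio of -0.87 against -0.38 for all genes. Sp1, a general promoter factor that acts on Abcb1 genes, was 2.81-fold lower (2.67 to 2.95), Nfkb1 2.58-fold (2.44 to 2.73), the early response factor Egr1 2.28-fold and Msn 2.12-fold (2.08 to 2.15). Of 16 conjugation enzymes 4 were higher and 0 lower, with a median of 0.20, among them Gstp1 (109 and 43.5 CPM, 2.50, 2.41 to 2.60) and Nqo1 (32.1 and 14.1 CPM, 2.27, 2.12 to 2.44). Of 11 other ABC transporters 2 were higher, with 10 and 11 UMIs, and 4 lower, among them Abcb8 (4.96 and 12.8 CPM) and Abcb10 (5.03 and 10.2 CPM), which reside in mitochondria, with a median of -0.73. Of 10 uptake carriers 1 was higher and 1 lower, with a median of -0.08.

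In the other malignant labels the counts are read against 8.16% of all genes higher and 24.0% lower in Malign_1, 4.43% and 19.0% in Malign_2, and 5.04% and 20.0% in Malign_3. In Malign_1 the regulators and anchors had 0 of 17 higher and 5 lower, in Malign_2 0 of 17 and 2, and in Malign_3 0 of 16 and 3, with Sp1 among the lower ones in each, at 3.06-fold, 2.19-fold and 3.07-fold. The conjugation enzymes had 4 of 16 higher and 0 lower in Malign_1, 2 of 17 and 0 in Malign_2, and 2 of 17 and 0 in Malign_3. Gstp1 was among the higher ones in all 4 labels, with ratios of 2.09 to 2.90 and overlapping pools in each. Of the other ABC transporters 4 of 10, 3 of 10 and 3 of 8 were lower in Malign_1, Malign_2 and Malign_3, and 2, 0 and 0 were higher. The uptake carriers had 2 of 10 higher and 1 lower in Malign_1, 1 of 11 and 3 in Malign_2, and 1 of 10 and 2 in Malign_3.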

How the data were processed

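Single-cell suspensions of hashtagged mouse tumors were pooled, freed of dead cells and captured as 10x 3′ libraries in 16 pools. Per the labels and the methods, the authors aligned reads with Cell Ranger 6.0.0, introns included, to GRCm38, filtered cells and removed doublets with Scrublet. The deposited raw tables hold whole UMI counts per cell, and the deposited annotation gives 22 cell labels. The methods state a minimum of 1000 genes and a maximum of 20% mitochondrial reads, and the reporting summary states a lower minimum of genes. Cells in the deposited pools go down to 402 to 536 genes, and those under 1000 genes were kept here. No further doublet filter was run. A second, normalized table per pool was not used, and 0 columns belonged to other samples. Although the labels name a human organism, the gene symbols and the build are of mouse. Sequences of the pumps are not printed here.

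Counts were summed per label and experiment over cells kept, after the deepest copy of a barcode shared by long-term pools was chosen, and divided by total UMIs to give CPM. Levels carry exact Poisson, ratios exact conditional binomial and shares exact Clopper-Pearson 95% intervals. A gene was compared with 10 or more UMIs over both sums, and called at 2-fold or more, with a sum of 0 set to a floor of 3 UMIs over the group. No test across samples was possible. Shares were computed after thinning to 10000 or 3000 UMIs per cell. The 6 pumps are always named, from each pathway list at most 5 genes with the most UMIs among those at 2-fold or more in a comparison, and for likeness the 3 genes with the highest r among genes at 5 CPM or more in a label. The pumps and all lists were chosen with earlier results of these data known. Calls and intervals were tested on simulated counts. Alternatives changed the cells kept, the scaling, the depth, the weight of cells, the pools and the fold. Python 3.11.15 with numpy 2.4.6, scipy 1.17.1 and matplotlib 3.10.9 was used.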

Additional observations from a re-analysis of the deposited data

Results flagged for a closer look

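Of 47 groups of 4 or 8 pools 4 had a pool that stood apart from the rest by Dixon's criterion. For normally distributed values chance alone gives this in about 1 in 20 groups, a rate that does not hold for counts near 0. Abcb1a in Malign_1 was 28.3 CPM in short-term T127 pool 1, where the nearest pool had 31.8 CPM, and the gap took 0.841 of the whole range. Without that pool the call for Abcb1a was the same. Abcb1a in Malign_3 was 2.54 CPM in long-term pool 4, where the nearest pool had 0.976 CPM. Abcb1b in Malign_3 was 0.539 CPM in short-term T22 pool 1, from 1 UMI, and 0 in the others. Abcc4 in Malign_3 was 0.887 CPM in short-term T22 pool 4, from 1 UMI, and 0 in the others. With the only UMI in 1 of 4 pools the criterion is always met, so the flags of Abcb1b and Abcc4 say nothing about spread.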

How the results depend on the processing

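No paired analysis was possible because the results come from no test. Ratios within a pool are given for the long-term pools, which held both models. The counts of pumps at 2-fold or more between T127 and T22 stayed within 1.5 times of 4 and 1 in the long-term and of 5 and 1 in the short-term pools under each alternative run. All 20 log2 ratios past 2-fold kept their direction, as did 32 of 34 in all. An alternative that left a pump under 10 UMIs gave no ratio or call for it.

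The counts between long-term and short-term pools moved, as Abcb1a in the T127 labels lies just under 2-fold, Abcc1 and Abcc5 just over it, and Abcg2 in Malign_0 (11 and 9 UMIs) near it. In Malign_0 the count of higher pumps was 2 in place of 0 at 1.5-fold, without the top 5% of cells, scaled to the median gene and without long-term pools 1, 2 and 3, and 1 thinned to 3000 UMIs and with totals free of mitochondrial, ribosomal protein and Malat1 counts. The count of lower pumps was 0 in place of 2 at 3-fold and scaled to the median gene. Each count of 2 held Abcb1a and Abcg2, and the count of 1 was Abcb1a. In Malign_1 the higher count was 1, Abcb1a, in place of 0 at 1.5-fold, without the top 5%, scaled to the median gene, with the reduced totals and without long-term pools 1, 2 and 3. The lower count was 0 in place of 2 at 3-fold and scaled to the median gene, and 1 without long-term pools 1, 2 and 3, where Abcc1 is lost.

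In Malign_2 the higher count was 0 in place of 1 at 3-fold, without the top 5%, thinned and by the mean CPM per cell. The lower count was 3 in place of 1 at 1.5-fold, 2 without the top 5%, and 0 at 3-fold and scaled to the median gene. In Malign_3 the higher count was 0 in place of 1 when thinned, and the lower count was 0 in place of 2 at 3-fold, when thinned and scaled to the median gene, and 1 without the top 5% and by the mean CPM per cell. Why the ratios themselves moved was not tested.

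With 1 pool left out the higher count ranged from 0 to 1 in Malign_0 (1, Abcg2 each time, without long-term pool 3 or 6, or short-term T127 pool 2 or 3), from 0 to 1 in Malign_1 (1, Abcb1a each time, without long-term pool 1, 2 or 3, or short-term T127 pool 2, 3 or 4) and from 0 to 1 in Malign_2 (0 without long-term pool 6). The lower count ranged from 0 to 1 in Malign_2 (0 without long-term pool 3 or 4, or short-term T22 pool 1) and from 1 to 2 in Malign_3 (1 without long-term pool 1, 4 or 7, or short-term T22 pool 1).

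Cells of 10000 or more UMIs were examined as a choice made after seeing the data, and no count moved there. Few UMIs limit Abcg2 in T127, Abcc4 and Abcb1a in T22, and Malign_3 as a whole.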
